A study of Mus musculus with 12 samples.

Results

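The sex difference of autosomal genes was measured in the liver of wild type mice. The comparison set 3 male against 3 female libraries, 6 of the 12 samples of the series, and was read on chromosomes 1 to 19 only. The table listed 56748 genes, 52442 of them autosomal, and 13559 autosomal genes passed the filter on low counts. The wild type mice were 129S1/SvImJ, and the other 6 libraries came from the 129/Sv-Cyp2e1tm1Gonz/J line, a CYP2E1 knockout, again 3 males and 3 females. The lines are distinct strains of the 129 family, so a comparison between them is also one of lines. Mice of all 4 groups were 16 weeks old, ate normal chow and shared cages, and each library is a biological replicate made from poly(A) RNA of whole liver tissue. Whole tissue cannot tell fewer cells of a type from less RNA per cell.

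In rodents the pituitary of males releases growth hormone in pulses separated by gaps, whereas the female pattern is nearly continuous. The liver reads that pattern through the growth hormone receptor, JAK2 and the transcription factor STAT5, with the repressor BCL6 acting as a male-biased and CUX2 as a female-biased regulator downstream. The genes known to follow this pattern include cytochromes P450 of steroid and drug metabolism, sulfotransferases, and the major urinary proteins that carry pheromones in male urine.

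Of the 13559 genes, 613 differed between the sexes at an adjusted p under 0.05 in edgeR's quasi-likelihood test, or 4.52% of those tested. The males had the higher level for 285 of them (2.1%) and the females for 328 (2.42%). Which sex had more calls depended on the setting. DESeq2 gave 617 higher in males and 568 in females, and leaving out male replicate 3 gave 435 and 327. Testing every gene with a count gave 979 and 669. Of those 1648 calls, 1586 were of genes that also passed the default filter. Changes over 2-fold made up 498 of the 613, with 219 higher in males and 279 higher in females, and changes over 8-fold made up 161, with 73 and 88. The 3 male libraries all lay above or all below the 3 female ones for 611 of the 613 genes, against 26.9% of all genes tested. The same counts chose these genes, so this describes the calls and is no added evidence for them. In 10 of the male-higher genes the females had no count at all, and in 18 of the female-higher genes the males had none. The median log2 fold change over all tested genes was 0.00. Here and below a log2 fold change is male minus female. Unless marked SD, the value after ± is an approximate standard error (SE). It is the size of the log2 fold change divided by the square root of the test's F statistic. Adjusted p comes from the same edgeR test over all genes tested. Levels are CPM, counts scaled to a common library size (TMM), in replicate order 1 to 3.

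**Figure D1:**
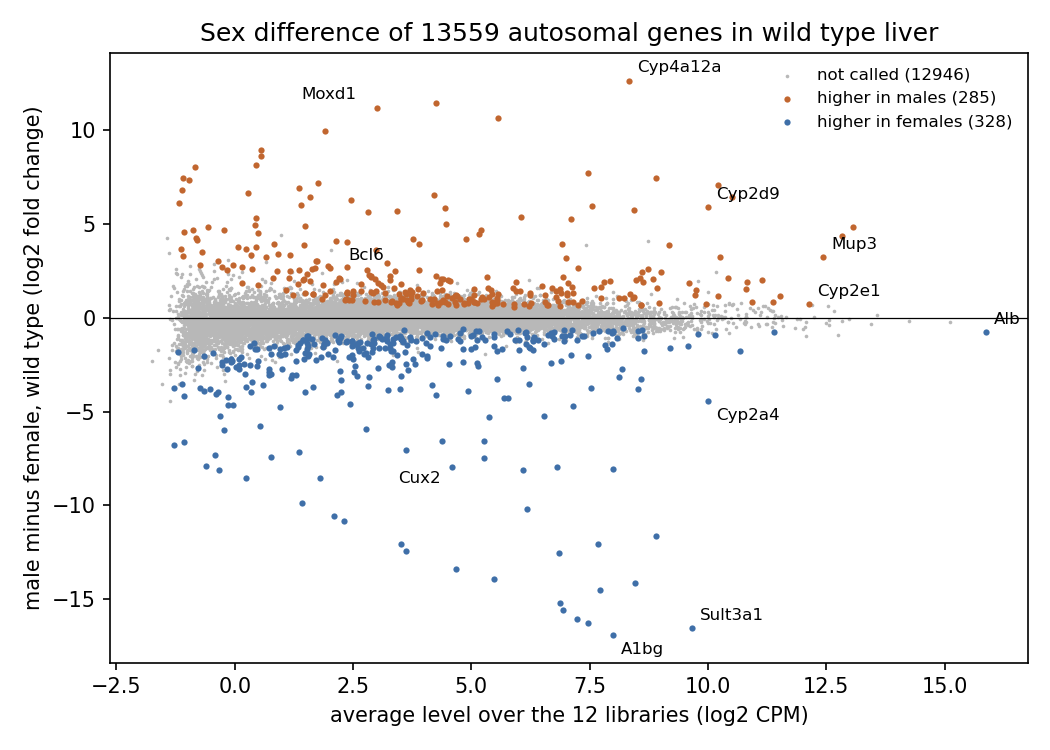
Each point is 1 of 13559 autosomal genes, with its average log2 CPM over the 12 libraries on the horizontal axis and its male minus female log2 fold change in wild type on the vertical axis. Orange points are the 285 genes called higher in males and blue points the 328 called higher in females. The most extreme fitted values belong to genes with almost no counts in 1 sex and have no fixed size.

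The calls were spread over the whole range of expression. With the genes cut into 4 equal classes of average level, 3.57% were called in the lowest and 6.37% in the highest. The smallest called change was a log2 difference of 1.20 in the lowest class and 0.58 in the highest. Protein-coding genes were called in 4.45% of 11866 and long noncoding RNAs in 6.48% of 880. Next to the threshold, Cyp4f14 and Cat lay just inside at adjusted p = 0.049974 in edgeR's test, and Cyp8b1, the sterol hydroxylase of cholic acid synthesis, lay just outside at adjusted p = 0.050001 with a log2 fold change of 1.36. The count fell to 370 without female replicate 2 and to 404 without female replicate 3, and 315 of the 613 genes were called in each of the 6 fits that left out 1 wild type library.

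Sequencing depth ran from 16630424 to 21961308 counts in the wild type libraries. Xist and the Y-linked gene Ddx3y matched the labelled sex in all 12 libraries, and Cyp2e1, the targeted gene, had 99554 to 221508 counts in wild type libraries and 5176 to 7565 in knockout ones. The slope on log2 gene length of a library's deviation in log2 CPM from the mean over libraries averaged -0.19 ± 0.04 (SD, n = 3) in females and -0.02 ± 0.13 in males (exact permutation test, two-sided p = 0.20, smallest possible 0.1). Hepatocyte markers summed to 84544 to 113170 CPM in females and 72777 to 81728 CPM in males, with no overlap. Only 1 of 11 was called (Alb, higher in females), or 9.09%, against 4.52% of all genes. Alb made up most of that sum, with means of 74396 CPM in females and 43452 CPM in males. The median log2 fold change of the 11 markers was 0.24, towards males, so the sum does not stand for the markers as a class. Stellate cell and matrix markers summed to 408 to 489 CPM in females and 323 to 334 CPM in males, with no overlap. Of 14 tested, 2 (Lum and Dcn) were called higher in females (14.3%, against 2.42% over all genes). In the knockout neither was called, with log2 fold changes of 0.49 and 0.01. Lum lost its call without female replicate 1 or 3 or male replicate 2 (adjusted p 0.0736 to 0.103), and Dcn without any library but male replicate 3 (adjusted p 0.0943 to 0.196). None of the tested markers of macrophages (13), sinusoidal endothelium (15), cholangiocytes (6), lymphocytes and neutrophils (8) or erythroid cells (4) was called. With 4.52% of all genes called, lists this short would hold few calls or none, so these counts are no result about the cell types. With the length slope as a covariate 743 autosomal genes were called in wild type, 522 of the 613 among them. With the length trend removed by an offset there were 688, with 557 of the 613 among them. The part of the length slope and of the cell type markers in the sex difference was not tested further.

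Bcl6, the repressor that binds many of the same sites as STAT5, was higher in males. It had 20.2, 13.7 and 18.7 CPM in the males and 3.02, 2.87 and 5.53 CPM in the females (log2 fold change 2.21 ± 0.41, adjusted p = 0.0061). Cux2, a cut-homeobox factor, was nearly restricted to females, with 24.7, 16.7 and 42.3 CPM in the females and 0.0937, 0.224 and 0 CPM in the males, and its 3 male libraries held 6 counts in all (log2 fold change -7.93 ± 0.54, adjusted p = 6.88e-07). The groups did not overlap for either gene. Trim24, a transcriptional cofactor, had 42.5, 34.1 and 42.7 CPM in the females and 9.60, 19.6 and 8.12 CPM in the males (log2 fold change -1.68 ± 0.31, adjusted p = 0.00518). Tox, a high-mobility-group box factor, had 6.85, 6.50 and 12.0 CPM in the females and 1.31, 2.07 and 2.11 CPM in the males (log2 fold change -2.21 ± 0.38, adjusted p = 0.00345). Every female library lay above every male one for both.

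Among 36 tested transcription factors linked to liver sex bias, these 4 were the called ones, 1 higher in males and 3 in females (11.1%, against 4.52% of all genes), with a list median of 0.51. Stat5b had 27.0, 27.5 and 29.7 CPM in the females and 37.5, 45.1 and 32.5 CPM in the males (adjusted p = 0.252). For Stat5a, its close relative, the values were 5.72, 5.80 and 6.50 CPM in the females and 6.09, 7.66 and 5.08 CPM in the males (adjusted p = 0.898). Hnf4a, a master regulator of hepatocyte genes, had 315, 226 and 188 CPM in the females and 429.6, 596 and 253 CPM in the males (adjusted p = 0.166), so its groups overlapped. Onecut1, which encodes HNF6, also overlapped, with 6.38, 9.25 and 8.68 CPM in the females and 9.98, 39.6 and 6.57 CPM in the males (log2 fold change 1.21 ± 0.65, adjusted p = 0.283). Without male replicate 2 its log2 fold change was 0.04, and 51.7% of its 100-base windows occur in another annotated gene.

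Upstream of them, 1 of 23 tested genes of growth hormone receptor signalling and the IGF axis was called, or 4.35%, close to the 4.52% of all genes. That gene was Prlr, the prolactin receptor, with 241, 243 and 217 CPM in the females and 63.3, 63.4 and 43.9 CPM in the males (log2 fold change -2.04 ± 0.21, adjusted p = 3.48e-05), and its groups did not overlap. Ghr, the growth hormone receptor, had 493, 619.9 and 536 CPM in the females and 855, 642 and 943 CPM in the males (adjusted p = 0.153). Igf1, the main growth hormone target secreted by the liver, had 693, 669.5 and 715 CPM in the females and 636, 725 and 733 CPM in the males and a log2 fold change of 0.01 ± 0.15 (adjusted p = 0.972). Its libraries interleaved. Esr1, the oestrogen receptor, had 40.8, 45.1 and 52.6 CPM in the females and 9.74, 18.2 and 16.1 CPM in the males (log2 fold change -1.66 ± 0.31, adjusted p = 0.00677), all females above all males.

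The Bcl6 promoters are shown because it is the male-higher regulator and carries the STAT5 motif more than once. Those of A1bg and Sult3a1 are shown because they were among the most female-restricted and hold both motifs marked below. Each run is the 250 bases before a RefSeq start site (GRCm38.p6, the gene's own strand, 5′ to 3′). Capitals mark TTCNNNGAA, the motif of STAT5 that BCL6 can also bind, and ATTGAT or its reverse complement ATCAAT, a core shared by HNF6 and CUX motifs.
Bcl6 promoter, chr16:23981284-23981533, minus strand: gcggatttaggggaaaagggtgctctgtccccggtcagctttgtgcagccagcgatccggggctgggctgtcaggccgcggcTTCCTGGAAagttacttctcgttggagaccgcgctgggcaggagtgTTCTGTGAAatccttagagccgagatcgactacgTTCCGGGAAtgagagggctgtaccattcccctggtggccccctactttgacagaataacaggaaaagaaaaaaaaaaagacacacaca
Bcl6 upstream promoter, chr16:23988853-23989102, minus strand: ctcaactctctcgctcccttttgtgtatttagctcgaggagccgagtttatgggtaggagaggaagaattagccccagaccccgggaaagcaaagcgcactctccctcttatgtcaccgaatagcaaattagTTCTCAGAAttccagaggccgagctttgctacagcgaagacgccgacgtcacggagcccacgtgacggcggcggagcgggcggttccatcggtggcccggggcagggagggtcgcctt
A1bg promoter, chr15:60921271-60921520, minus strand: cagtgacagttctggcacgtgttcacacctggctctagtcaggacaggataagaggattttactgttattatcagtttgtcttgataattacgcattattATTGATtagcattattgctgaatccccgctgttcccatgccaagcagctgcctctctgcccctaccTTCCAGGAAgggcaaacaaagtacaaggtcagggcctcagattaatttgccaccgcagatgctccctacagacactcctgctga
Sult3a1 promoter, chr10:33857472-33857721, plus strand: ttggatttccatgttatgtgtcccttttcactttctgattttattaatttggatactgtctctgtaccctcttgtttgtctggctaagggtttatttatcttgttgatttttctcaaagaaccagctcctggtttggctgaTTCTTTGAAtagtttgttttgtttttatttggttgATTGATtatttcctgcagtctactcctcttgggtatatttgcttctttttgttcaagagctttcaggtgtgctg
The first Bcl6 promoter held TTCNNNGAA 3 times, at bases -168, -122 and -88 from the start site, and the second held it once, at -118. In the window of A1bg the motif began at -84, with ATTGAT at -150. For Sult3a1 they began at -109 and -74. The windows printed here and below were chosen among those that hold a motif, and most named genes had none. Of 70 named genes with a promoter sequence, 10 held TTCNNNGAA and 21 held ATTGAT. The promoters of Cux2, the female-higher regulator, and of Sult3a2 held neither and are not printed.

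The motifs were then counted over all genes with a promoter sequence. Windows of 300 bases (250 before to 50 after the start site) were matched by symbol for 9872 of 13557 symbols, and both strands were searched. TTCNNNGAA was in 9.72% of 144 genes over 2-fold higher in males, in 10% of 190 over 2-fold higher in females and in 8.55% of all. ATTGAT was in 14.6%, 13.7% and 5.48%. Over all called genes, TTCNNNGAA was in 8.81% of 193 higher in males and 8.44% of 225 higher in females, and ATTGAT in 11.9% and 12.4%. The promoters of the genes over 2-fold were also richer in A and T, with medians of 45.3% and 46.7% against 39.3% for all, and the part of base composition was not tested. Near-identical promoters of neighbouring genes, such as Cyp3a41a and Cyp3a41b, were counted separately, and the part of such copies was not tested. A match is a description of letters, not of binding.

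Genes known to depend on growth hormone pulses were high in males. Of 42 tested members of that list, 35 were called higher in males, 1 higher in females and 6 were not called, against 2.1% higher in males over all genes. The list median was 2.93 on the log2 scale. It was compiled from genes known for this bias, with earlier results of these data known, so its direction is not independent evidence. The exception was Sult1c2, at 14.3 ± 2.09 CPM in females and 5.52 ± 1.35 CPM in males (mean ± SD, n = 3, adjusted p = 0.00193).

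Cyp4a12a, a fatty acid omega-hydroxylase, lies at chr4:115156243-115190012 (mm39) and had 655, 793 and 470.4 CPM in the males and 0.0945, 0 and 0.193 CPM in the females. That was 35764 counts over the males against 5 over the females (log2 fold change 12.62 ± 0.67, adjusted p = 6.6e-08). Its neighbour Cyp4a12b had 84.0, 144 and 76.5 CPM in the males and 0.0473, 0.0638 and 0.0643 CPM in the females, a ratio of 1768 with a 95% counting interval of 605 to 8577 (adjusted p = 3.98e-07). Of their 100-base windows, 35.8% and 36.2% occur in another annotated gene, mainly each other, so reads could be split between them. Hsd3b5, a hydroxysteroid dehydrogenase of the male liver, had 341, 273 and 413 CPM in the males and 0.851, 2.10 and 1.99 CPM in the females (log2 fold change 7.72 ± 0.46, adjusted p = 1.97e-07). Cyp2d9, a steroid hydroxylase, had 2018, 2185 and 1995 CPM in the males and 45.5, 19.7 and 38.6 CPM in the females (log2 fold change 5.90 ± 0.40, adjusted p = 6.67e-07). In all of these the lowest male library was far above the highest female one.

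Obp2a, an odorant-binding lipocalin, had 3841 counts over the males and 1 over the females, a ratio of 3634 with a counting interval of 652 to 143590.0 (adjusted p = 3.75e-06). By library it stood at 42.2, 132 and 35.5 CPM in the males and 0, 0 and 0.0643 CPM in the females, highest in male replicate 2. Selenbp2, a selenium-binding protein, had 135, 489 and 420.4 CPM in the males and 4.87, 7.21 and 5.08 CPM in the females (log2 fold change 5.93 ± 0.50, adjusted p = 5.2e-06), lowest in male replicate 1. Elovl3, a fatty acid elongase, had 65.0, 61.6 and 77.6 CPM in the males and 2.69, 3.57 and 2.96 CPM in the females (log2 fold change 4.47 ± 0.36, adjusted p = 3.75e-06). The groups stayed apart in each case. Gstp1, a glutathione transferase, had 1773, 2355 and 2299.5 CPM in the males and 254, 189 and 241 CPM in the females (log2 fold change 3.23 ± 0.21, adjusted p = 6.25e-07). Moxd1, a monooxygenase-like gene, was at 0 counts in the 3 females and at 4.59, 12.0 and 28.3 CPM in the males, at least 242-fold higher if the 3 females together are set at 3 counts (adjusted p = 0.0162). Its call was lost without any 1 of the 3 female libraries (adjusted p 0.0575 to 0.0607).

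For 3 more male-higher genes the change rested on few female counts. Ces2b, a carboxylesterase, had 284 counts over the males and 2 over the females, a ratio of 134 (counting interval 36.9 to 1115). The pseudogene Adh6-ps1 had 344 and 2, a ratio of 163 (counting interval 44.7 to 1349). Lama3, a laminin chain, had 227 and 3, a ratio of 71.6 (counting interval 24.2 to 349.8). The intervals cover counting error only. All 3 passed the edgeR test, with adjusted p of 0.000197, 2.12e-05 and 2.25e-05.

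**Figure D2:**
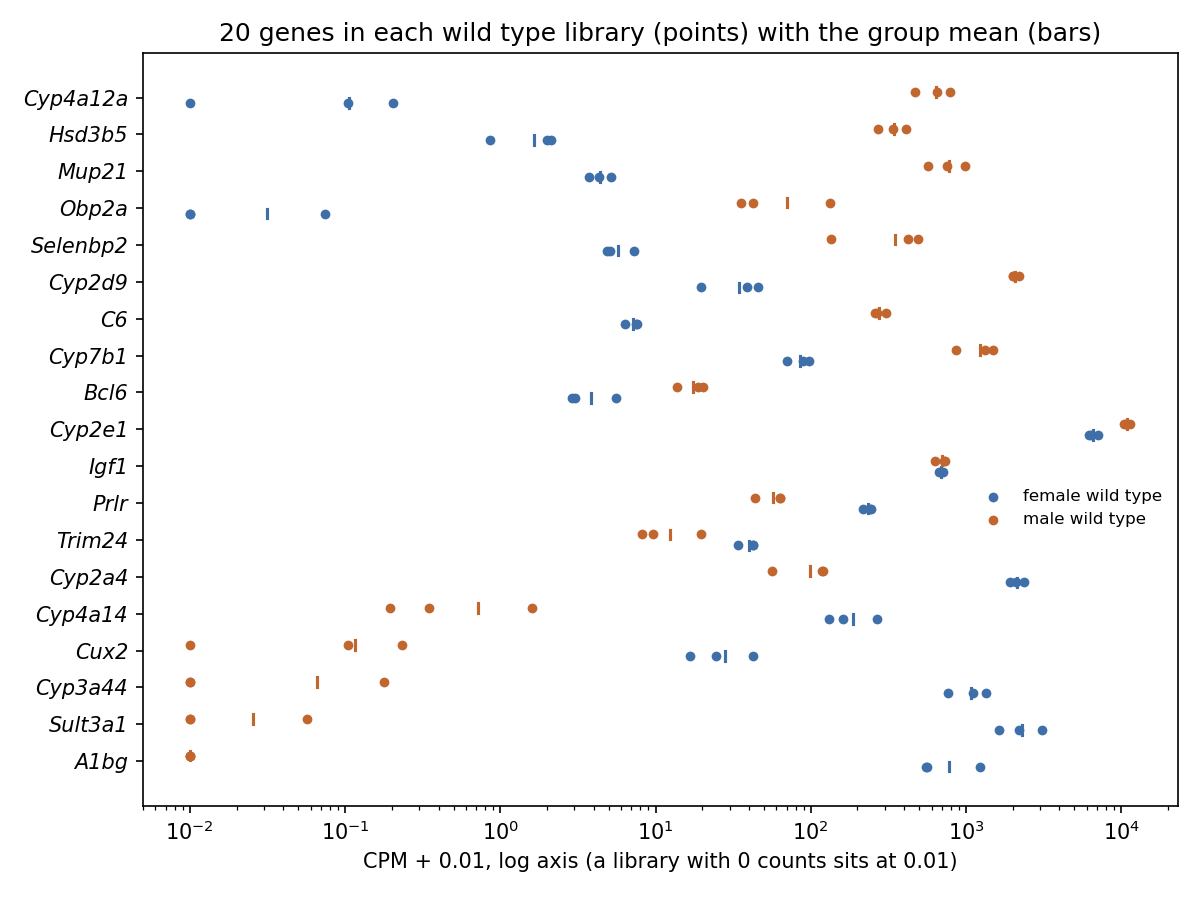
CPM of 19 named genes in each of the 6 wild type libraries on a log axis after adding 0.01, with female libraries in blue, male libraries in orange and a bar at each group's mean. The sexes overlap only for Igf1, and the gap is widest for Sult3a1, A1bg and Cyp3a44, where the males sit at or near 0.

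The major urinary proteins, lipocalins that bind male pheromones, have 49 genes in the table, which together took 5.50% ± 2.04 (SD, n = 3) of all counts in males and 0.441% ± 0.173 in females. A separate, compiled list of 27 major urinary protein genes had 26 tested members. Of them, 11 were called higher in males, 3 higher in females and 12 were not called (53.8% called, against 4.52% of all genes). That share is of the list, not of the 49 genes. The 3 female-higher ones were the pseudogenes Mup-ps1, Mup-ps12 and Mup-ps14, chosen for naming after their values were seen, with log2 fold changes from -3.05 to -2.56. Mup21, at chr4:62066169-62069100 (mm39), had 759.7, 568 and 990.0 CPM in the males and 4.30, 3.70 and 5.15 CPM in the females (log2 fold change 7.46 ± 0.38, adjusted p = 4.12e-08), every male far above every female. Mup20, which encodes the pheromone darcin, had 563, 561 and 929 CPM in the males and 10.7, 16.3 and 11.7 CPM in the females (log2 fold change 5.73 ± 0.40, adjusted p = 7.5e-07). Mup3 had 10130.0, 7186 and 13635 CPM in the males and 566, 1534 and 1231 CPM in the females (log2 fold change 3.22 ± 0.41, adjusted p = 0.000292), and Mup1 had 281, 240.3 and 205 CPM in the males and 9.97, 20.5 and 18.0 CPM in the females (log2 fold change 3.91 ± 0.35, adjusted p = 1.08e-05). No male library of these fell among the females.

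Members of this cluster are near-identical, and 55.7% of Mup1's 100-base windows, 38.8% of Mup20's, 97.3% of Mup15's and all of Mup22's occur in another annotated gene. Mup22 had 769.8, 119 and 9533 CPM in the males and 11.2, 96.7 and 15.1 CPM in the females (log2 fold change 6.41 ± 1.69, adjusted p = 0.0495). Mup15 had 2023, 289 and 6899.6 CPM in the males and 3.17, 51.2 and 15.2 CPM in the females (log2 fold change 7.05 ± 1.51, adjusted p = 0.0151). Male replicate 3 was highest and replicate 2 lowest for both. Mup22's call was lost without any wild type library but male replicate 2 (adjusted p 0.0578 to 0.181, log2 fold change 3.45 to 8.05), and Mup15's without female replicate 1 or 3 (adjusted p 0.0589 to 0.0877). Their values are uncertain as single genes.

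A pair of neighbouring Mup promoters is shown because both genes were called male-higher and both windows hold the ATTGAT core on the reverse strand more than once.
Mup21 promoter, chr4:62150842-62151091, minus strand: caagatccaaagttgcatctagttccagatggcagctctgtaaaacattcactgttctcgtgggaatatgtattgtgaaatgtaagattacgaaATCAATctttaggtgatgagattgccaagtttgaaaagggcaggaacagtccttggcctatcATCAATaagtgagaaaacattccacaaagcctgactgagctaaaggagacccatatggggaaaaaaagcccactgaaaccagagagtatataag
Mup3 promoter, chr4:62087318-62087567, minus strand: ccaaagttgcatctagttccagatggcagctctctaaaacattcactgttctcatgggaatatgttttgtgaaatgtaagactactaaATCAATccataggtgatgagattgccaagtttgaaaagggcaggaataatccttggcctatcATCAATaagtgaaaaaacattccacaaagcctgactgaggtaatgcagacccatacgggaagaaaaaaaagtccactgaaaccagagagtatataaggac
ATCAAT began at -156 and -94 in Mup21 and at -162 and -100 in Mup3. TTCNNNGAA was not in either window.

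Genes known to depend on continuous growth hormone were high in females. Of 57 tested, 48 were called higher in females, 4 higher in males and 5 were not called, against 2.42% higher in females over all genes, with a list median of -4.27. The 4 that went the other way were Slc22a28, an organic anion transporter-like gene, Cyp2b10, a phenobarbital-inducible P450, Lpl, which encodes lipoprotein lipase, and Gna14, a G protein subunit, with log2 fold changes of 4.16, 2.91, 1.76 and 1.34. They were named after their values were seen. Like the male list, this one was built from known female-biased genes and is not independent evidence of its direction.

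A1bg, alpha-1-B glycoprotein of plasma, at chr15:60768708-60794861 (mm39), had 560.0, 1235 and 553 CPM in the females and 0 counts in the 3 males, at least 14029-fold higher in females (adjusted p = 1.91e-05). Sult3a1, a sulfotransferase at chr10:33733717-33755528 (mm39), had 1628, 3103 and 2194 CPM in the females and 1 count in all 3 males against 117235, a ratio of 123900.0 (counting interval 22237 to 4893700.0, adjusted p = 3.18e-09). Male liver was at or near the detection limit for both at this depth.

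The Cyp3a genes, P450s of steroid and drug oxidation, split in the same way. Of 8 tested, 4 were called higher in females (50%, against 2.42% over all genes) and none higher in males. Cyp3a41a had 296, 412 and 240.1 CPM and Cyp3a41b 393, 582 and 541 CPM in the females, with 0 counts in the males for both, at least 5794-fold and 9105-fold higher. They share 90.8% and 88.2% of their 100-base windows, so their separate values are uncertain. Cyp3a44 had 764, 1348 and 1112 CPM in the females and 3 counts in all males, a ratio of 19231 (counting interval 6580.3 to 93257). Cyp3a16 had 494, 698 and 479 CPM and 1 male count, a ratio of 30491 (counting interval 5472 to 1204400.0). Adjusted p for the 4 ran from 3.18e-09 to 4.12e-08.

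Their promoters are printed because all 4 genes had 0 to 3 counts over the males and hold ATCAAT at nearly the same place.
Cyp3a41a promoter, chr5:145720137-145720386, minus strand: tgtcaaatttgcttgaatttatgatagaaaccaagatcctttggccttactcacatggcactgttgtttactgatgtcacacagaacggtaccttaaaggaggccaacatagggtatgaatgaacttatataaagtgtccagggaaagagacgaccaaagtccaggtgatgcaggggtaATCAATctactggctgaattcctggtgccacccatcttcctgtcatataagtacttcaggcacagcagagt
Cyp3a41b promoter, chr5:145584731-145584980, minus strand: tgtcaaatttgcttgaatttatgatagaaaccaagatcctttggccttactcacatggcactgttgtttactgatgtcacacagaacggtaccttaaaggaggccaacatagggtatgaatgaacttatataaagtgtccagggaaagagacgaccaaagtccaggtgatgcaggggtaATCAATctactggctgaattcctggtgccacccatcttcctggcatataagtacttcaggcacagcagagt
Cyp3a44 promoter, chr5:145805875-145806124, minus strand: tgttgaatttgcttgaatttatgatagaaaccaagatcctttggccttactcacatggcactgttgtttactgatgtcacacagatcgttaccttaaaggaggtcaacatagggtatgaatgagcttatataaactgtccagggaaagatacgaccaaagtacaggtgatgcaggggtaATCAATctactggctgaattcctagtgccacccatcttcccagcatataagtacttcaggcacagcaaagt
Cyp3a16 promoter, chr5:145469724-145469973, minus strand: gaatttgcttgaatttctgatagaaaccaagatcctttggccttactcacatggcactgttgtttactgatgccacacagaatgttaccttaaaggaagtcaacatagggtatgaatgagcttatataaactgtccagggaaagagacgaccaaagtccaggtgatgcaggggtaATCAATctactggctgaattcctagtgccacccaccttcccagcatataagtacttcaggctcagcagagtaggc
Cyp3a41a and Cyp3a41b matched at 249 of 250 bases (99.6%), and Cyp3a41a and Cyp3a44 at 236 (94.4%). ATCAAT began at -71 in these 3 and at -75 in Cyp3a16.

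Cyp2c genes, which metabolise arachidonic acid and drugs, moved both ways, with 6 of 13 called higher in females and 2 higher in males (61.5% called, against 4.52% of all genes). Cyp2c69 had 948, 2202 and 1509 CPM in the females and 0.375, 0.727 and 0.372 CPM in the males (log2 fold change -11.61 ± 1.07, adjusted p = 1.36e-05). Cyp2c40 had 568, 783 and 627 CPM in the females and 2.67, 2.96 and 1.61 CPM in the males (log2 fold change -8.08 ± 0.65, adjusted p = 3.21e-06). Cyp2c67, a near relative on the same chromosome, went the other way with 678, 535 and 617 CPM in the males and 113, 100.2 and 87.9 CPM in the females (log2 fold change 2.60 ± 0.22, adjusted p = 5.82e-06). All 3 separated the sexes without overlap. Cyp2c39 had a log2 fold change of -3.81 ± 0.31, and Cyp2c37, a pericentral P450, one of -2.74 ± 0.26. Shared windows came to 35.4% for Cyp2c69, 34.4% for Cyp2c40 and 23.7% for Cyp2c67.

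The windows of Cyp2c67 and Cyp2c69 are shown because the genes were called in opposite directions.
Cyp2c67 promoter, chr19:39649043-39649292, minus strand: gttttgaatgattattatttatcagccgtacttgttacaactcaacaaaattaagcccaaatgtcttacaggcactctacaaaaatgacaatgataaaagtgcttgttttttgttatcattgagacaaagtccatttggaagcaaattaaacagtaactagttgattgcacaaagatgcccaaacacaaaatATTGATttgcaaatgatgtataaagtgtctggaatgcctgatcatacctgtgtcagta
Cyp2c69 promoter, chr19:39886770-39887019, minus strand: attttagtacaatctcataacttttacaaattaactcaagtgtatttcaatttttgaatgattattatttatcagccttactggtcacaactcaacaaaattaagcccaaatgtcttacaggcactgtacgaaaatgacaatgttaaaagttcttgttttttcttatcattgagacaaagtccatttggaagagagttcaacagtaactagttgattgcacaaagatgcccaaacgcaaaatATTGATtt
ATTGAT began at -58 in Cyp2c67 and at -8 in Cyp2c69, so the core occurs beside a male-higher and a female-higher member alike. The bases just before it are nearly the same in both windows, so the positions differ because the annotated start sites do.

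In the list of Cyp2a, Cyp2b, Cyp2g and Cyp2f2 genes 4 of 7 were called higher in females and 2 higher in males (85.7% called, against 4.52% of all genes). Cyp2a4, a steroid hydroxylase, had 2373, 1927 and 2088 CPM in the females and 121, 118 and 56.0 CPM in the males (log2 fold change -4.44 ± 0.36, adjusted p = 4.24e-06), and Cyp2a5, its close relative that oxidises coumarin, had 3411, 2745 and 3261 CPM in the females and 883, 1123 and 793 CPM in the males (log2 fold change -1.75 ± 0.28, adjusted p = 0.00201). Females were above males throughout, by a wider margin for Cyp2a4. Cyp2a22 and Cyp2g1 had log2 fold changes of -6.59 ± 0.43 and -3.11 ± 0.39. Among 10 Cyp2d genes 2 were called (20%), both male-higher: Cyp2d9, given above, and Cyp2d12 at 1.49 ± 0.30 (adjusted p = 0.0105). The Cyp2d12 call was lost without female replicate 1 or male replicate 1 (adjusted p 0.056 to 0.0676).

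Sulfotransferases, which conjugate steroids, bile acids and xenobiotics, were called in 11 of 19 cases, all higher in females (57.9%, against 2.42% over all genes), with a list median of -1.78. The male libraries had 0 counts of Sult3a2, Sult2a1, Sult2a2 and Sult2a5. In the females Sult3a2 had 299, 586 and 412 CPM, at least 7727-fold higher. Sult2a1, a hydroxysteroid sulfotransferase, had 219.9, 272 and 235 CPM, at least 4428-fold higher. For Sult2a2 the females had 98.5, 131 and 72.6 CPM, at least 1853-fold higher, and 34.6% of its windows occur in another gene, mainly Sult2a5. Sult2a5 had 36.7, 32.8 and 38.1 CPM, at least 663-fold higher. Adjusted p for these 4 ran from 6.35e-08 to 2.07e-06. The family as a whole was not absent from male liver, and 8 of the 19 were not called. The 10 Sult2a and Sult3a genes together took 0.150% ± 0.042 (SD, n = 3) of all counts in males and 0.391% ± 0.123 in females.

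Other conjugating and hydrolysing enzymes were mixed. Flavin monooxygenases and carboxylesterases gave 5 of 19 higher in males and 6 higher in females (57.9% called, against 4.52% of all genes). Ces3a, a lipid and drug hydrolase, had 2416, 2682 and 2525 CPM in the males and 847, 909 and 890.4 CPM in the females (log2 fold change 1.53 ± 0.18, adjusted p = 0.000136), with tight groups that did not overlap, and Ces4a had a log2 fold change of 2.62 ± 0.35. Among 23 glutathione transferases (17.4% called) 1 was male-higher (Gstp1) and 3 were female-higher: Mgst3 at -2.44 ± 0.29, Gstt3 at -1.73 ± 0.20 and Gsto1 at -0.75 ± 0.16. Gsto1 was not called without female replicate 2 or male replicate 1 (adjusted p 0.0624 to 0.0853). Glucuronosyltransferases had 3 of 18 called (16.7%), Ugt2b1 in males (1.21 ± 0.20) and Ugt2b37 (-2.78 ± 0.39) and Ugt1a5 (-2.38 ± 0.47) in females. Ugt1a5 shares 63.1% of its windows with other genes, mainly Ugt1a7c.

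Transporters of the hepatocyte were called in 14 of 34 cases (41.2%, against 4.52% of all genes), 4 higher in males and 10 in females. Slc22a26, an organic anion transporter-like gene, had 223, 286 and 248 CPM in the females and 2 counts in all males, a ratio of 6900.5 (counting interval 1909.9 to 56986, adjusted p = 2.04e-10). Its relative Slc22a27 had 73.3, 68.3 and 68.7 CPM in the females and 0 male counts, at least 1300.2-fold higher. Abcd2, a peroxisomal fatty acyl-CoA transporter, had 76.3, 76.0 and 74.2 CPM in the females and 0.703, 1.12 and 0.496 CPM in the males (log2 fold change -6.59 ± 0.38, adjusted p = 1.9e-07). The 3 female values of Slc22a27 and of Abcd2 lay close together. Slco1a4, an organic anion uptake carrier, had 164, 117 and 142 CPM in the females and 29.0, 22.8 and 29.0 CPM in the males (log2 fold change -2.39 ± 0.26, adjusted p = 7.24e-05), again with no overlap.

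Steroid and bile acid enzymes differed at single steps. Cyp17a1, a hydroxylase and lyase of steroid synthesis, had 356, 334 and 258 CPM in the females and 12.0, 18.1 and 6.14 CPM in the males (log2 fold change -4.70 ± 0.41, adjusted p = 7.62e-06), while Hsd3b2 (2.63 ± 0.26) and Srd5a1, a steroid reductase (1.20 ± 0.19), were higher in males. Of 26 tested steroid receptors and enzymes 4 were male-higher and 2 female-higher (23.1% called, against 4.52% of all genes). Cyp7b1, the oxysterol hydroxylase of the alternative bile acid pathway, had 864, 1334 and 1498 CPM in the males and 69.8, 97.2 and 89.0 CPM in the females (log2 fold change 3.85 ± 0.26, adjusted p = 6.88e-07). Cyp39a1, an oxysterol hydroxylase, had 79.9, 62.2 and 66.1 CPM in the females and 3.93, 6.26 and 3.53 CPM in the males (log2 fold change -3.92 ± 0.26, adjusted p = 6.67e-07). These oxysterol hydroxylases went opposite ways without overlap. Scp2, a sterol carrier, had a log2 fold change of 1.16 ± 0.15, and the other 18 of 21 bile acid genes were not called (14.3% called).

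In lipid metabolism, 10 of 43 targets of the fatty acid receptor PPAR-alpha and genes of fatty acid oxidation were called, all higher in females (23.3%, against 2.42% over all genes), with a list median of -0.31. Hao2, a peroxisomal hydroxyacid oxidase, had 152, 232 and 139 CPM in the females and 0.187, 0.168 and 0.0620 CPM in the males (log2 fold change -10.18 ± 0.37, adjusted p = 2.93e-09). Cyp4a14, a fatty acid omega-hydroxylase, had 268, 132 and 162 CPM in the females and 1.59, 0.335 and 0.186 CPM in the males (log2 fold change -7.96 ± 0.61, adjusted p = 2.07e-06). Acot3, an acyl-CoA thioesterase, had 133, 121 and 205 CPM in the females and 0.468, 1.06 and 0.0620 CPM in the males (log2 fold change -8.13 ± 0.57, adjusted p = 7.6e-07). No male library came within reach of a female one in these genes. Cyp4a10 was higher in females too, at -5.22 ± 0.36. Of 29 lipogenic and lipid storage genes (13.8% called) 1 was male-higher (Elovl3) and 3 were female-higher, Elovl6 (-1.69 ± 0.23), Acacb (-1.52 ± 0.27) and Plin4 (-2.37 ± 0.56). Plin4 was called only with all libraries or without male replicate 2 among the leave-one-out fits (otherwise adjusted p 0.0555 to 0.124). Cholesterol synthesis and uptake had 1 of 22 called, or 4.55%, near the 4.52% of all genes, so the count is no result about the list. That gene was Pmvk, a mevalonate pathway kinase, at -1.19 ± 0.31 (adjusted p = 0.0458), which was lost without any wild type library but male replicate 3 (adjusted p 0.103 to 0.169).

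**Figure D3:**
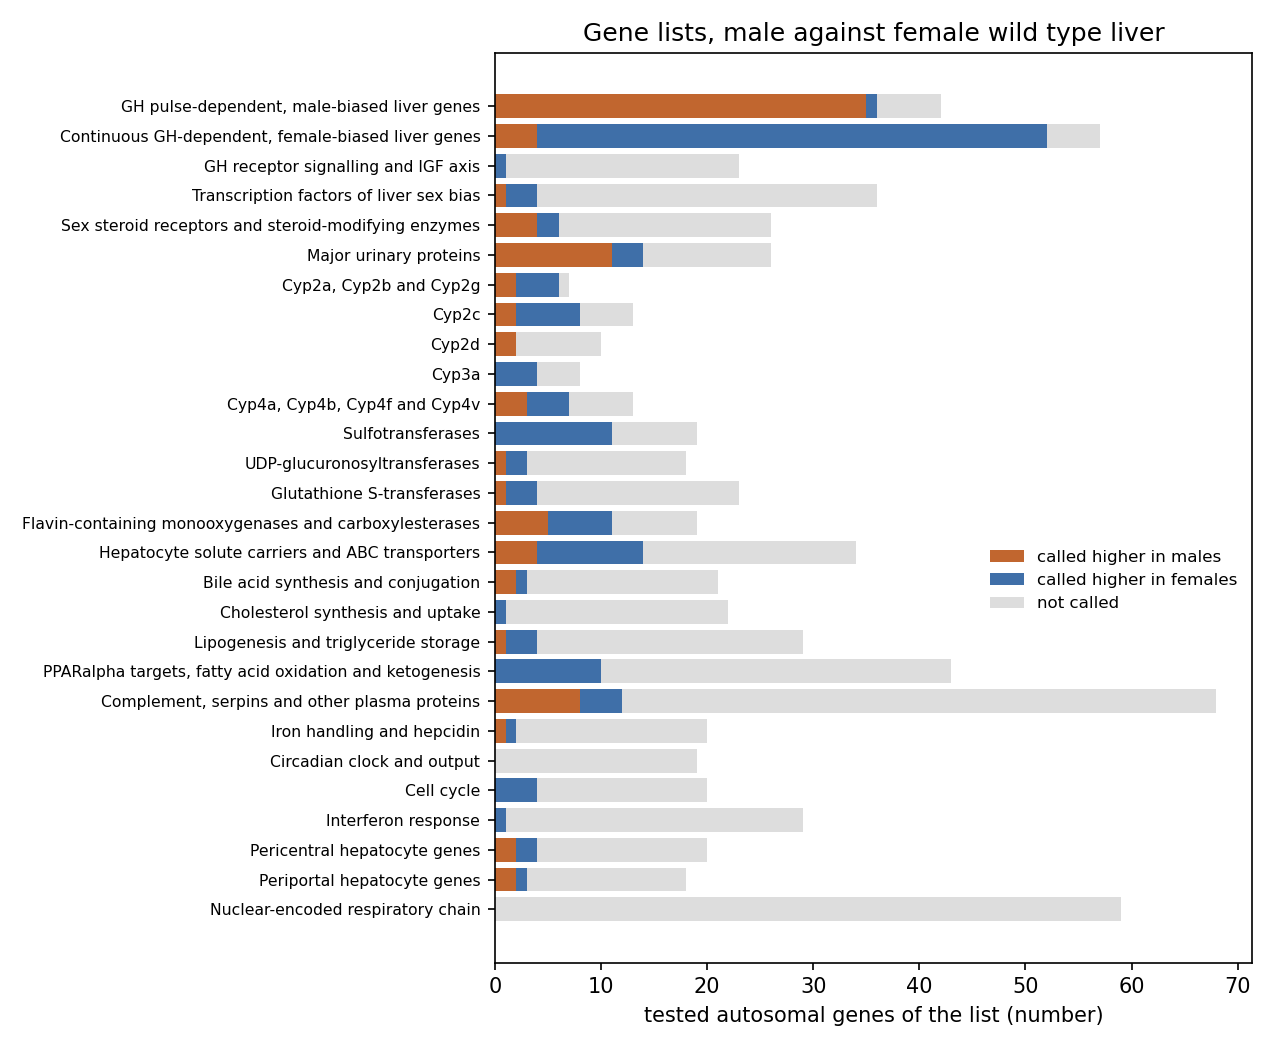
Bars give the number of tested autosomal genes in each of 28 gene lists, split into those called higher in males (orange), called higher in females (blue) and not called (grey). The growth hormone lists are mostly coloured, 36 of 42 and 52 of 57, and circadian clock and respiratory chain genes have no call.

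Among 68 plasma proteins 8 were male-higher and 4 female-higher (17.6% called, against 4.52% of all genes), with a median of -0.02. The male-higher ones included late complement components that assemble the membrane attack complex. C6 had 261, 303 and 267 CPM in the males and 7.61, 7.52 and 6.37 CPM in the females (log2 fold change 5.27 ± 0.22, adjusted p = 6.92e-09). C8a had 565, 701 and 497 CPM in the males and 119, 90.2 and 113 CPM in the females (log2 fold change 2.45 ± 0.21, adjusted p = 7.1e-06). C9 had 628, 684 and 645 CPM in the males and 129.8, 197 and 131 CPM in the females (log2 fold change 2.10 ± 0.20, adjusted p = 2.03e-05). In each all males lay above all females, by the widest margin for C6. Alb, the albumin gene, was higher in females by a small margin (log2 fold change -0.78 ± 0.19, adjusted p = 0.0367), a call kept only without female replicate 2 among the leave-one-out fits (otherwise adjusted p 0.0503 to 0.124). Hamp2, a hepcidin paralogue of iron handling, had 109, 118 and 114 CPM in the females and 6.74, 5.26 and 5.64 CPM in the males (log2 fold change -4.27 ± 0.39, adjusted p = 1.16e-05), far apart between the sexes.

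Of 20 pericentral genes 2 were male-higher and 2 female-higher (20% called), and of 18 periportal genes 2 and 1 (16.7% called), against 4.52% of all genes tested. Cyp2e1, the ethanol-oxidising P450 of pericentral hepatocytes and the gene targeted in the other line, had 10374, 11480.0 and 10700.0 CPM in the males and 6213, 6349 and 7076 CPM in the females (log2 fold change 0.73 ± 0.18, adjusted p = 0.0313). The males lay above the females, but without any wild type library other than male replicate 3 the call was lost (adjusted p 0.0635 to 0.118). Cyp1a2 was at 1.13 ± 0.26 and lost its call without female replicate 2 or 3 or male replicate 1 or 2 (adjusted p 0.058 to 0.119). Aldh3a2, a fatty aldehyde dehydrogenase, was female-higher at -1.45 ± 0.19, as was Ctsc among periportal genes at -1.18 ± 0.23, while Cyp2f2 (1.83 ± 0.34) and Etnppl (1.45 ± 0.21) were male-higher.

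Cell cycle genes had 4 of 20 called, all higher in females (20%, against 2.42% higher in females over all genes), with a median of -1.02. Ccnd1, cyclin D1, had 45.8, 25.3 and 18.3 CPM in the females and 3.70, 7.27 and 5.52 CPM in the males (log2 fold change -2.44 ± 0.36, adjusted p = 0.00101), with no overlap. Mcm6, a replication helicase subunit, was at -2.88 ± 0.54. Top2a and Cdk1 were called at adjusted p = 0.0368 and 0.0454, and each lost its call without at least 5 of the 6 libraries in turn (adjusted p 0.0581 to 0.148 and 0.0525 to 0.166; Top2a kept it without female replicate 3). None of 19 circadian and none of 59 respiratory chain genes was called. Their medians were 0.47 and -0.45 in wild type and -0.15 and 0.64 in the knockout, so both changed sign between the lines. Interferon response genes had 1 of 29 called, or 3.45%, no more than the 4.52% of all genes. It was Gbp3, a guanylate-binding protein, at -1.36 ± 0.33, lost without female replicate 2 or 3 or male replicate 1 or 2 (adjusted p 0.0503 to 0.12). Of 20 iron genes, Hamp2 and Hjv were called (10.0%), the latter at 0.70 ± 0.18 and lost without any library but male replicate 3 (adjusted p 0.0571 to 0.161).

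Some called genes lay side by side. Runs of at least 3 genes called in 1 direction, with gaps of at most 100 kb, numbered 23, of which 13 were male-higher and 10 female-higher, and held 81 genes or 13.2% of the calls. Positions are mm39, and genes are named here as members of these runs. The run at chr5:145373119-145742684 held Cyp3a16, Cyp3a41b, Cyp3a63-ps, Cyp3a41a and Cyp3a44, which were all 5 genes tested there. At chr10:33642420-33792017 lay Sult3a2, Gm10327, Sult3a1, Gm47935 and Rsph4a, also 5 of 5 and female-higher. The acyl-CoA thioesterases Acot1 to Acot4 with 4732463B04Rik filled chr12:84034635-84107176, female-higher at all 5 tested genes. On chromosome 8 Ces2a, Ces2b and Ces2c (chr8:105460635-105581115) were male-higher, and Ces1b, Ces1c and Ces1d (chr8:93783356-93924466) were female-higher. The 3 Ces2 genes were called male-higher in the knockout too. The 3 Ces1 genes were not called there (adjusted p 0.335 to 0.655 in edgeR's test), and Ces1d was at 0.24. In wild type Ces1c lay near the threshold (adjusted p = 0.0495). By chromosome the share called ran from 2.44% on chromosome 2 to 6.91% on chromosome 19.

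Dimorphic genes also took a large part of the libraries, which is a description since the same counts chose them. Genes called higher in males held 11.1% ± 1.64 (SD, n = 3) of all counts in males and 2.63% ± 0.06 in females. Genes called higher in females held 11.2% ± 1.01 in females and 5.49% ± 0.84 in males.

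**Figure D4:**
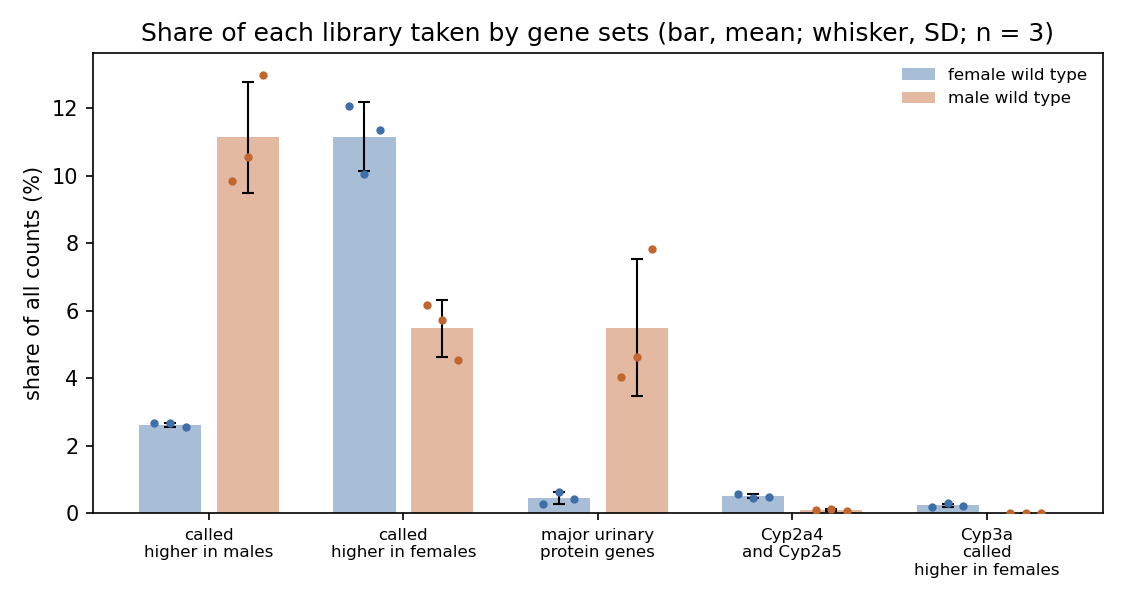
Share of all counts in each wild type library taken by 5 gene sets, with bars at the mean, whiskers for the SD of 3 libraries and points for libraries, females in blue and males in orange. Genes called male-higher take 2.63% in females and 11.1% in males, and major urinary proteins 0.441% and 5.50%.

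The sex difference was set beside that of the knockout line, whose 6 libraries share no sample with wild type. In the knockout, 734 autosomal genes were called (5.41%), 402 higher in males (2.96%) and 332 higher in females (2.45%). With scaling by total count instead of TMM, which moved the median of all genes in the knockout to -0.18, the split was 309 and 415. Without any 1 knockout library other than male replicate 3, the knockout count was 427 to 487. Called the same way in both lines were 337 genes, 55.0% of the wild type calls and 45.9% of the knockout calls, and none was called in opposite directions. Of the 613 wild type calls 566 (92.3%) had the same sign in the knockout, against 45.3% of all tested genes. Of the 161 with over 8-fold changes 139 were called the same way. All 35 male-higher members of the pulse list and all 48 female-higher members of the continuous list were called the same way in the knockout. Both lists were compiled with earlier results of these data known. Of the 4 male-higher members of the continuous list, 3 were called the same way. Agreement varied among the other lists. It held for 4 of 4 Cyp3a calls and 9 of 10 calls of PPAR-alpha targets and fatty acid oxidation. It held for 1 of 4 cell cycle calls and for 3 of 6 female-higher flavin monooxygenases and carboxylesterases.

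**Figure D5:**
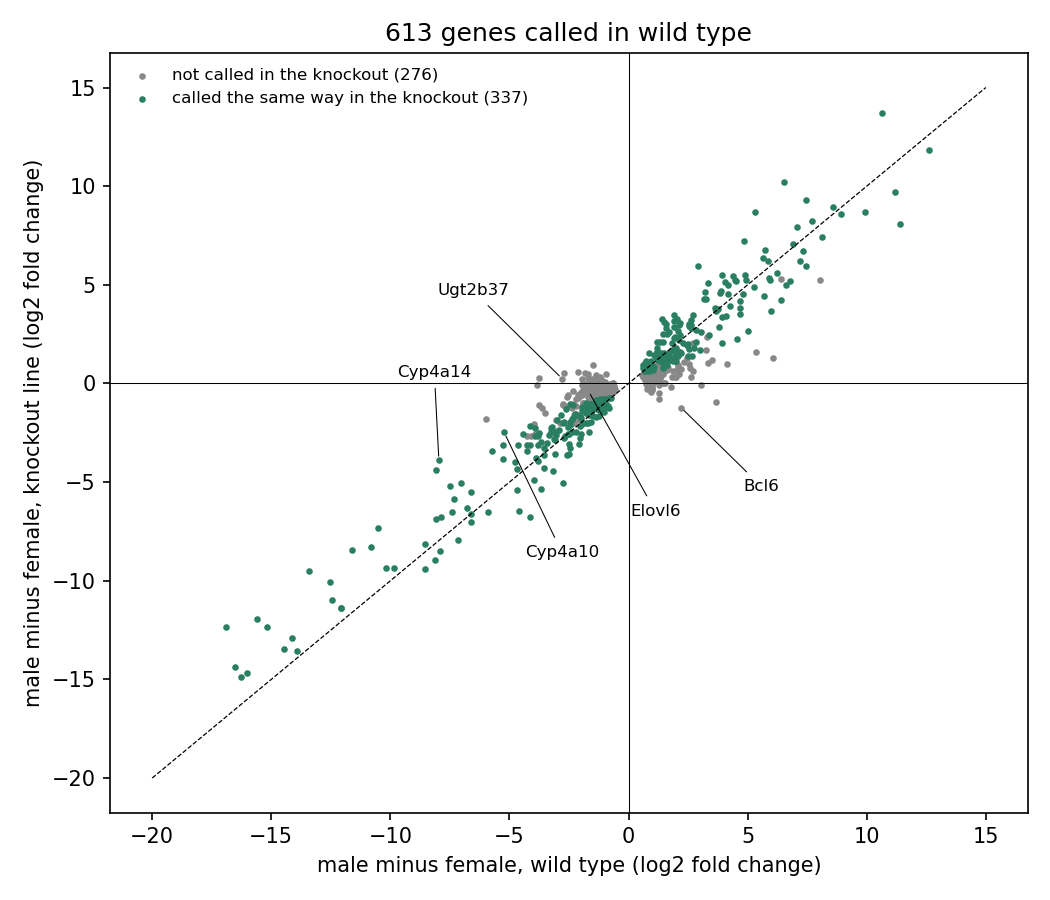
Male minus female log2 fold change of the 613 wild type calls in wild type (horizontal) and in the knockout line (vertical), with the dashed line marking equal values. Green points are the 337 genes also called in the knockout and grey points the other 276. Of the points, 566 lie on the same side of 0 in both lines, while Bcl6 and Ugt2b37 lie across it in the knockout.

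The difference of the sex contrasts was itself tested, and no gene passed (0.0% of 13559 by edgeR, smallest adjusted p = 0.0972). At an unadjusted p under 0.05 in edgeR's test there were 3045 genes, or 22.5% of those tested. With the length slope of the libraries as a covariate there were 723, and the cause of that fall was not tested. At the adjusted threshold DESeq2 called 211 and limma voom 0. Bcl6 had a log2 fold change of 2.21 ± 0.41 in wild type and -1.22 ± 0.40 in the knockout (difference -3.43 ± 0.57, adjusted p = 0.138). In the knockout its values were 19.5, 11.4 and 5.02 CPM in females and 4.97, 5.07 and 5.31 CPM in males, so the knockout groups overlapped. Ugt2b37 went from -2.78 ± 0.39 to 0.24 ± 0.37 (adjusted p of the difference 0.168). For Cyp4a14 the values were -7.96 ± 0.61 and -3.89 ± 0.48, and for Cyp4a10 -5.22 ± 0.36 and -2.48 ± 0.31 (adjusted p 0.138 and 0.123). None of these differences between the lines passed the edgeR threshold.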

How the data were processed

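Poly(A) RNA of whole mouse liver was sequenced in 12 libraries, 3 per sex and line. The deposited table holds raw read counts per gene, not normalised. Per the submitters' processing notes, HISAT2 2.0.5 and DESeq2 were used with the mm39 build. No source used here gives the counting program, the annotation release or whether reads were counted by strand. Counts were fitted in R 4.3.3 with edgeR 4.0.16 (TMM scaling, default low-count filter, quasi-likelihood test, 1 mean per group over all 12 libraries), with Benjamini-Hochberg adjustment over all 14003 genes passing the filter and a threshold of 0.05. The contrasts were male minus female in wild type, the same in the knockout, and their difference. The biological coefficient of variation was 25.9%, with 8 residual degrees of freedom. DESeq2 1.42.0 and limma 3.58.1 (voom) were alternatives. The fit was also run on counts simulated from its own dispersion trend, with changes planted only in well-counted genes. That run does not show how well changes are found in genes with few counts. Total counts ran from 15167730 to 25082532.

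Named genes were the 12 largest changes each way among called genes with an average log2 CPM of at least 1, a conventional symbol and no overlap between the sexes, up to 4 members of smallest adjusted p in each gene list, and a set of regulators whatever their values. Other genes are named as chosen after their values were seen or as members of a run of neighbours. The members, lists and tests were chosen with earlier results of these data known. Fold bounds use a floor of 3 counts over a group, and ratios with 1 to 3 counts carry exact 95% counting intervals, which cover counting error only. Shared sequence is the share of a gene's 100-base windows found in another annotated gene. Promoters are from RefSeq (GRCm38.p6), and gene positions from the deposited table (mm39). Figures were drawn with matplotlib 3.10.9. 1 gene that the rule names is not reported here.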

Additional observations from a re-analysis of the deposited data

How the results depend on the processing

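Among autosomal genes in wild type, 613 were called with edgeR's quasi-likelihood test. DESeq2 called 1185 (52.1% of them higher in males against 46.5%), and a test against a 1.5-fold change 312. A filter keeping any gene with a count gave 1648 (59.4% higher in males). Of these, 1586 also passed the default filter and 62 did not, so few of the added calls were of newly tested genes. Leaving out 1 wild type library gave 370 to 762 calls, the lowest without female replicate 2 and the highest without male replicate 3 (57.1% higher in males). The knockout count of 734 became 1359 with DESeq2, 1642 with the any-count filter, 330 against a 1.5-fold change and 427 to 923 without 1 knockout library. For the difference between the lines, edgeR's 0 became 211 with DESeq2 and 1407 with the any-count filter, of which 1388 passed the default filter. It became 3 with the length slope as a covariate and 0 to 2 without 1 library. The 337 genes called alike in both lines became 205 against a 1.5-fold change and 264 to 337 without 1 library. With the replicate number as a block, 406 genes were called in wild type, all among the 613. Same-numbered wild type libraries had correlations of deviations of -0.07, -0.50 and 0.00, and not every library correlated best with its own number, so the numbers were not taken to pair the samples. Regulators that were not called changed sign: Onecut1 to -0.26 with the length slope as a covariate, Stat5a to -0.27 with it, to -0.13 with the length trend removed and to between -0.10 and 0.20 without 1 wild type library (negative without male replicate 2), and Igf1 to -0.019 with at least 1 CPM in 3 libraries, to -0.21 with the length trend removed and to between -0.020 and 0.053 without 1 wild type library (negative without female replicate 2, male replicate 2 or male replicate 3). Regulators that gained a call were Onecut1 (1.25, adjusted p = 0.00111) and Hnf4a (0.84, adjusted p = 0.0136) with the any-count filter, and Ghr (0.78, adjusted p = 0.0188) with the length slope as a covariate, all by edgeR. Onecut1 went from 1.21 to 0.04 without male replicate 2. Of 90 called named genes, 74 kept their call without each wild type library and 16 lost it without at least 1. The cause of these changes was not tested. Depth limits the genes at 0 to 3 counts in 1 sex, for which only bounds or wide counting intervals can be given.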
